A study of Mus musculus with 24 samples.

Results

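The livers of germ-free mice, raised without microbes, were compared with those of conventional mice when both groups ate a diet rich in menhaden fish oil. The members were the 12 arrays titled as fish oil mice among the 24 arrays of the series, chosen by diet and described across 19938 genes. All were male C57Bl/6 mice, and each array is titled as 1 mouse. The labels give 11 weeks both as the age and as the length of feeding, a diet with 45% of energy as fat, and a fast of 4 hours before the livers were taken. The other 12 arrays came from conventional and germ-free mice fed lard, at the same share of fat. They are used to show where the fish oil result differs, and they also enter the spread between mice on which the p-values rest. The labels give no substrain, supplier, litter or cage, so the stock of the mice and their bacterial status cannot be told apart, and no gene was altered by design.

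Microbes of the gut reach the liver through the portal blood, as bacterial wall products, fermentation acids and modified bile acids. Bacteria deconjugate and dehydroxylate bile acids, and in the ileum bile acids release a hormone, FGF15 in mice, that lowers Cyp7a1 in the liver. Kupffer cells, the macrophages of the liver sinusoids, and the sinusoidal endothelium take up bacterial products from portal blood. Fish oil supplies long-chain omega-3 fatty acids, ligands of PPAR-alpha that also lower the activity of SREBP-1c, a driver of fatty acid synthesis.

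Values are log2 RMA signals, in which 1 unit is a 2-fold step. Germ-free arrays 3 and 4 were nearly identical: the SD of their differences over the 300 most variable genes was 0.123, against 0.349 for the next most similar of 60 pairs within a group. They were averaged and counted as 1 sample, which left 5 germ-free and 6 conventional samples. Germ-free values are given below for mouse 1, mouse 2, mice 3 and 4 together, mouse 5 and mouse 6, in that order, and conventional values as the lowest, median and highest of 6. Of the 10 hepatocyte markers, including Alb and Ttr, 0 were called by limma, 1 was higher at an unadjusted p under 0.05, and their mean lay between 13.54 and 13.67 in every sample.

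The conventional mice varied most. The median SD per gene, over the 9969 genes above the median level, was 0.204 in them and 0.12 in the germ-free mice, and it was 0.122 and 0.121 in the lard groups. Conventional mice 5 and 6 stood apart in the acute phase gene Saa1 (11.64 and 10.81, against 6.03 to 7.61 in the other 4) and in Lcn2 (13.17 and 13.16, against 9.61 to 10.32). A clock index, Dbp minus Arntl, 2 genes of opposite phase in the daily cycle, was 3.24, 3.67, 4.09, 0.12 and -0.77 in the germ-free samples and -1.55, -2.04, 2.49, 3.66, 0.05 and -1.76 in conventional mice 1 to 6. Both groups held mice of high and of low index, in unequal shares. The germ-free samples of high index also differed in array scale. The 75th percentile of the array was 8.9 in mouse 1, 8.87 in mouse 2 and 8.91 in mice 3 and 4. It was 8.76 and 8.75 in germ-free mice 5 and 6, and between 8.77 and 8.85 in conventional mice. Nothing in the labels says that the mice came from separate litters or cages, so p-values measure only a spread between mice. That spread was pooled over all 4 groups, lard mice included, although the conventional fish oil mice varied more than the rest.

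Of the 19938 genes, 1377 were called (limma, Benjamini-Hochberg adjusted p under 0.05), or 6.91%. Of these, 601 were higher in germ-free mice, 3.01% of all genes, and 776 were lower, 3.89%. Before adjustment 4039 of the 19938 genes had a p under 0.05 in limma's test, in either direction. The unadjusted counts given below stand against that background. The median size of a called difference was 0.42, and 68 called genes differed more than 2-fold, 32 of them higher and 36 lower. All 5 germ-free samples lay outside the conventional range for 758 genes (3.8%), above it for 277 (1.39%) and below it for 481 (2.41%), and 626 of the 758 were called. Higher genes made up 43.6% of the calls, but 74.4% of 1782 calls when the arrays were set to equal medians, a shift of 0.075 for the median gene, and 33.5% of 1514 calls with each array's 75th percentile as a covariate. The balance of higher against lower calls over all genes thus depended on the scaling, and the gene groups below are given by gene and by count. Conventional mice 5 and 6 and the fit also moved the total, which was 2075 without those mice. It was 581 when the fish oil groups were fitted alone and 1047 with 1 weight per group. When a change above 1.2-fold was required it was 72, and 74 of the 113 called genes named in this report lost their calls.

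**Figure D1:**
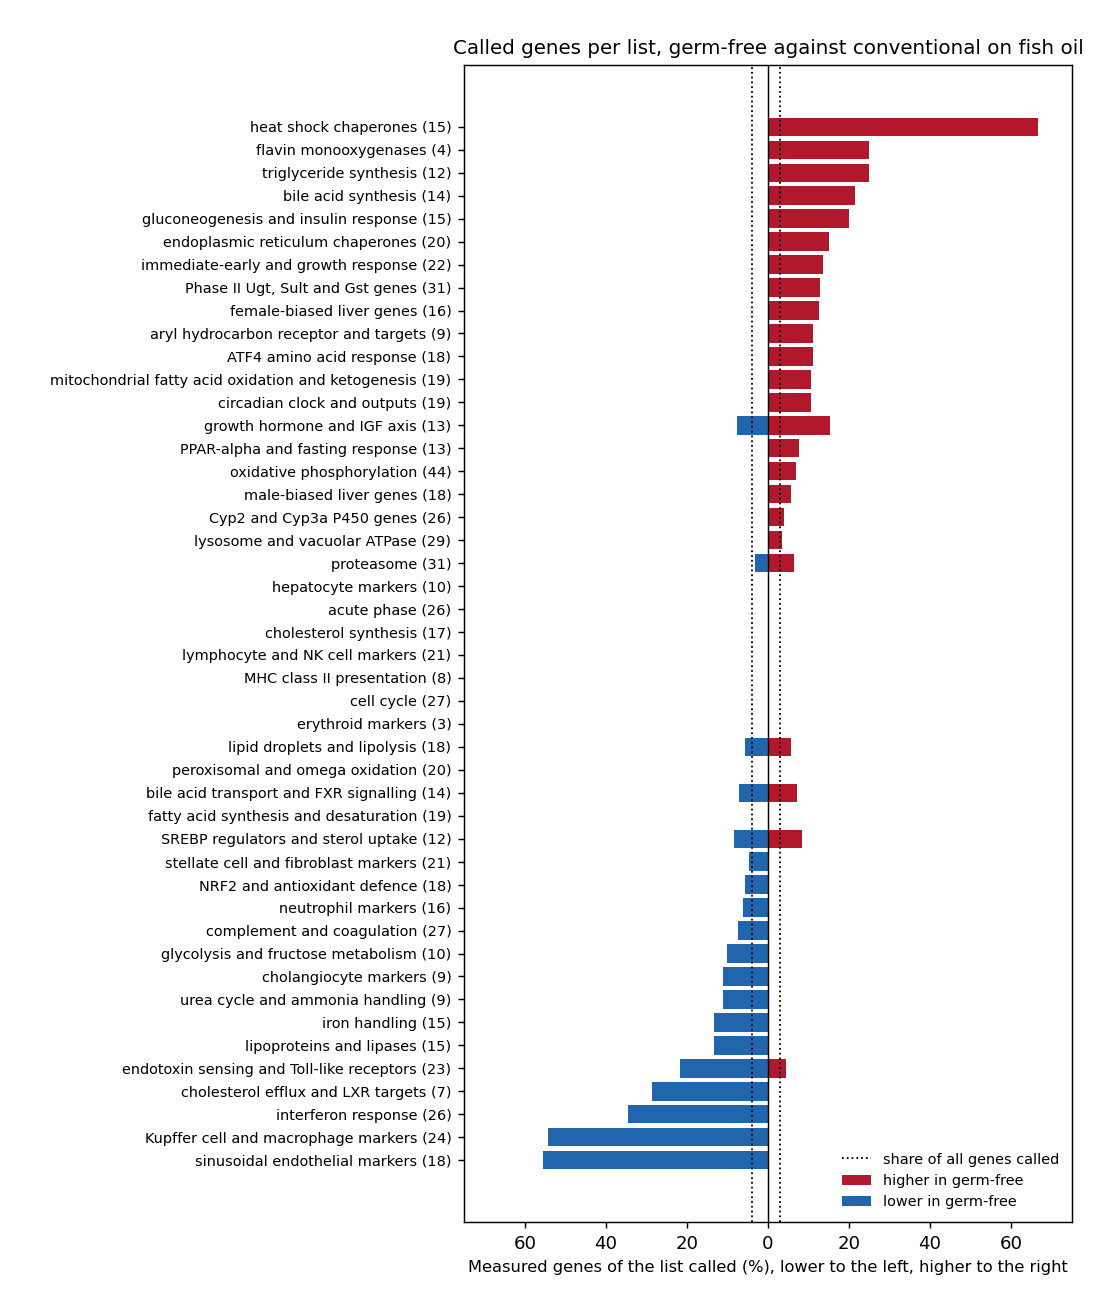
Share of the measured genes of each list that were called by limma in the fish oil comparison, lower in germ-free to the left in blue and higher to the right in red, in percent; the number in brackets is the number of genes measured and the dotted lines mark the shares over all genes, 3.89% and 3.01%. Heat shock chaperones stand at the top with 66.7% higher, and the endothelial and Kupffer cell markers at the bottom with 55.6% and 54.2% lower.

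The largest rise among the named genes was in Cyp7a1, the rate-limiting enzyme of classical bile acid synthesis. Cyp7a1 lay at 12.25, 12.53, 11.97, 11.43 and 11.85 in the germ-free samples, and at 7.9, 8.54 and 10.56 in conventional mice. Every germ-free sample was above every conventional mouse, and the conventional mice spread over more than 2 log2 units, with mice 3 and 4 highest. The difference was 7.78-fold (log2 2.96 ± 0.40 SE, adjusted p = 7.21e-05). Nr0b2 encodes SHP, the repressor that the bile acid receptor FXR induces and that represses Cyp7a1. It lay at 7.88, 8.0, 9.15, 9.22 and 9.41 in the germ-free samples and at 9.97, 10.76 and 10.87 in conventional mice. The groups did not overlap, and Nr0b2 was 3.65-fold lower (log2 -1.87 ± 0.33, adjusted p = 0.00127).

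Of 14 measured genes of bile acid synthesis and its control, 11 did not pass, and the list median was 0.11 against -0.03 over all genes. The 3 that rose made up 21.4% of the list, against 3.01% of all genes higher. Beside Cyp7a1 these were Akr1d1, the reductase of the sterol double bond (0.79 ± 0.20), and Klb, which encodes the co-receptor for FGF15 (0.66 ± 0.17). Akr1d1 and Klb both overlapped with conventional mice, and neither passed with the fish oil groups fitted alone (adjusted p = 0.119 and 0.113) or without mice 5 and 6 of both groups (0.0766 and 0.0908). Cyp8b1, which sets the share of cholic acid, differed by 0.07 ± 0.18 (adjusted p = 0.884), and Cyp7b1 of the alternative pathway by -0.16 ± 0.25 (0.784). Cyp39a1, an oxysterol hydroxylase outside that list, lay at 6.81, 6.78, 6.66, 6.29 and 6.29, below the conventional 6.96, 8.22 and 9.59 (log2 -1.71 ± 0.31, adjusted p = 0.00171). Among 14 genes of bile acid transport and FXR signalling, Nr0b2 fell and Abcc3 rose, a basolateral exporter of conjugates (0.72 ± 0.13, adjusted p = 0.00127), and 12 did not pass. Abcc3 was above every conventional mouse in all germ-free samples. Abcb11, the canalicular bile salt pump, and Nr1h4, the FXR gene, differed by -0.10 (adjusted p = 0.538) and -0.12 (0.735).

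**Figure D2:**
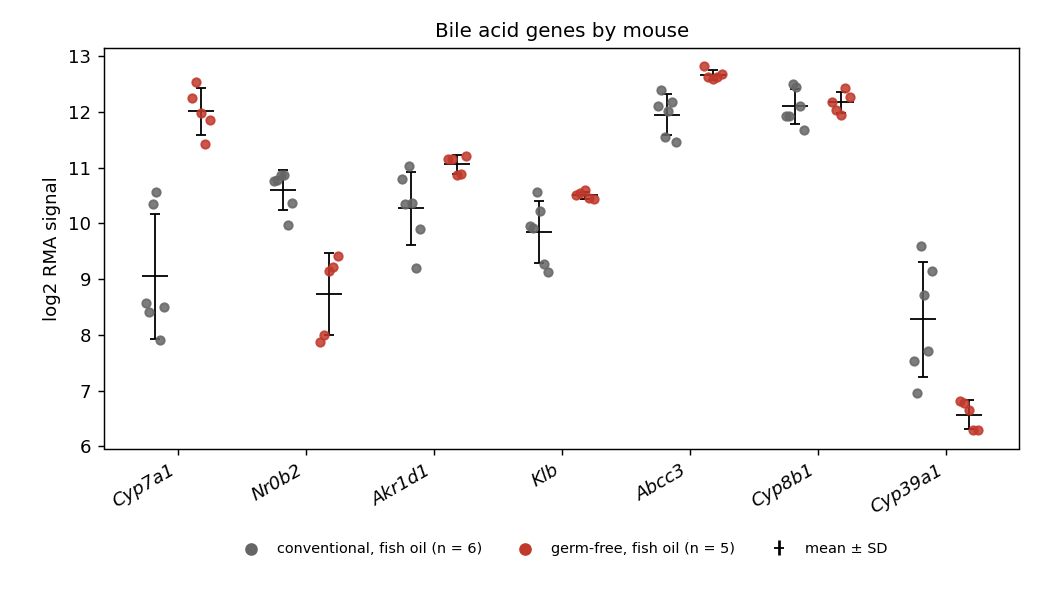
log2 RMA signal of 7 bile acid genes in each of 6 conventional (grey) and 5 germ-free (red) fish oil samples, with mean and SD. The germ-free samples of Cyp7a1 lie between 11.43 and 12.53, above all conventional mice, those of Nr0b2 and Cyp39a1 lie below all conventional mice, and Cyp8b1 overlaps.

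Heat shock chaperones of the cytosol and mitochondria, which help proteins fold and of which many are induced by the factor HSF1, had the highest share of called genes among the lists of more than 2 genes. Of 15 measured, 10 rose and 5 did not pass, against 3.01% of all genes higher, and the median difference was 0.58. For 9 of the 15 every germ-free sample lay above every conventional mouse, against 1.39% of all genes. Hspa1a, an inducible HSP70 gene, lay at 9.5, 8.63, 8.83, 8.28 and 8.3 in the germ-free samples and at 6.47, 6.71 and 6.87 in conventional mice. The gap between the groups was wider than the range of either, and the difference was 4.08-fold (log2 2.03 ± 0.15, adjusted p = 7.33e-09). Its neighbour Hspa1b is nearly identical in sequence, so the probes may read both.

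Dnajb1, an HSP40 co-chaperone that hands substrates to HSP70, lay at 10.01, 9.68, 11.22, 9.6 and 9.72 against 7.75, 8.01 and 8.49 (log2 1.97 ± 0.19, adjusted p = 4.67e-07). The averaged sample of mice 3 and 4 was the highest. Hsph1, a nucleotide exchange factor of HSP70, lay at 10.96, 10.9, 11.32, 10.79 and 11.07 against 8.65, 9.25 and 10.1 (log2 1.63 ± 0.21, adjusted p = 4.97e-05). Conventional mice 5 and 6 carried the highest Hsph1 of their group, and still lay below every germ-free sample. Bag3, which links HSP70 to autophagy, rose by 1.43 ± 0.15 and Dnajb4, another HSP40 gene, by 1.16 ± 0.10, both without overlap. The other 5 that rose were Hspa4l (0.62), Hsp90aa1 (0.61), Chordc1 (0.58), Hspe1, the mitochondrial HSP10 gene (0.50), and Hspa8, the constitutive HSC70 gene (0.24). Chordc1, a co-chaperone of HSP90, was the only one of the 10 with overlapping groups, and Hspa8 did not pass with the fish oil groups fitted alone (adjusted p = 0.0771). Dnaja1 (0.36, adjusted p = 0.0669), Hspb1 (0.43, 0.23), Hspd1 (0.15, 0.351), Hspa4 (0.02, 0.929) and Hspa2 (-0.09, 0.751) did not pass. The count was 10 with the clock index as a covariate, 11 without conventional mice 5 and 6, 10 without mice 5 and 6 of both groups and 9 with the fish oil groups fitted alone. With a change above 1.2-fold required it was 5.

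**Figure D3:**
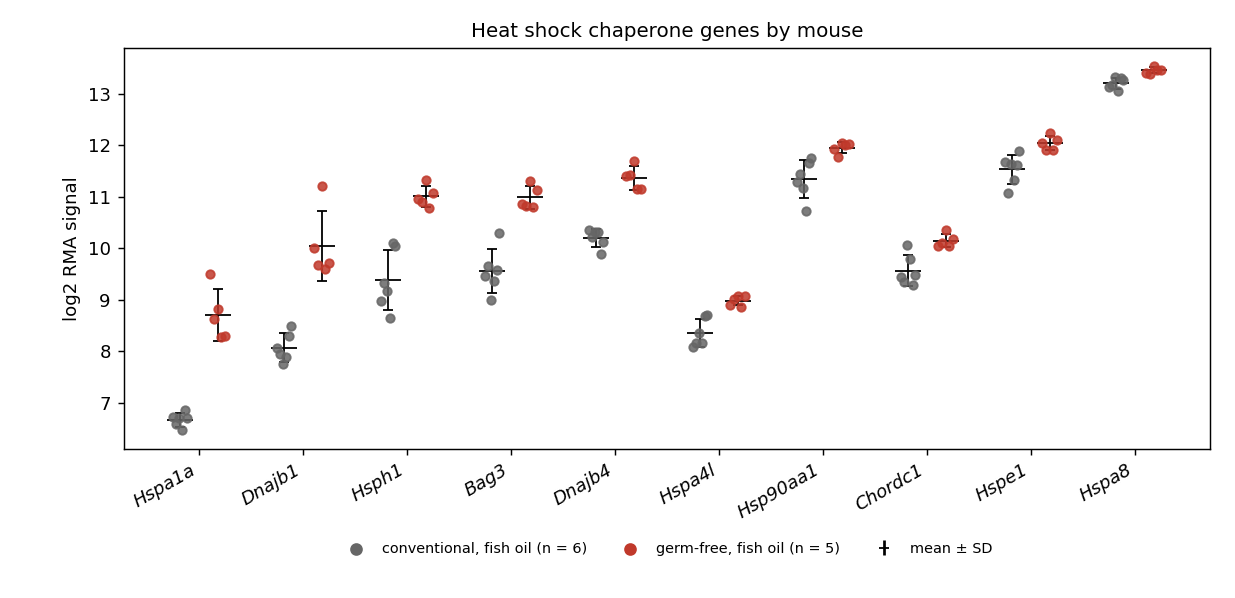
log2 RMA signal of the 10 heat shock genes that rose, in each of 6 conventional (grey) and 5 germ-free (red) fish oil samples, with mean and SD. For Hspa1a the germ-free samples lie between 8.28 and 9.5 and the conventional mice between 6.47 and 6.87; Chordc1 is the only gene whose groups overlap.

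Promoters of 4 of these genes are shown because HSF1 binds repeats of the unit GAA and its complement TTC, and these 4 were picked among the risen genes for holding such repeats. Bag3 and Dnajb4 hold 2 units too, while Dnajb1, with the second largest rise of the list, and Hspa4l hold none in their windows. Each window runs from 250 bases before to 50 after the RefSeq start of the gene (GRCm38.p6), is written 5′ to 3′ along the gene, and has in capitals the matches to GAANNTTC or TTCNNGAA, 2 units, or to their 3-unit extensions GAANNTTCNNGAA and TTCNNGAANNTTC. The windows are chr17:34972107-34972406, minus strand for Hspa1a, chr5:149636287-149636586, minus strand for Hsph1, chr1:55087898-55088197, plus strand for Hspe1, and chr9:18292017-18292316, plus strand for Chordc1.
Hspa1a: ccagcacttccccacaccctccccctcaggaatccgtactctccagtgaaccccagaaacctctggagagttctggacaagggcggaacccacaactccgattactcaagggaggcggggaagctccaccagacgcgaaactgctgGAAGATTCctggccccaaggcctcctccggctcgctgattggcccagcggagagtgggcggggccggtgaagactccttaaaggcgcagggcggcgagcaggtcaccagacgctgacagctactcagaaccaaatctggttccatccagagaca
Hsph1: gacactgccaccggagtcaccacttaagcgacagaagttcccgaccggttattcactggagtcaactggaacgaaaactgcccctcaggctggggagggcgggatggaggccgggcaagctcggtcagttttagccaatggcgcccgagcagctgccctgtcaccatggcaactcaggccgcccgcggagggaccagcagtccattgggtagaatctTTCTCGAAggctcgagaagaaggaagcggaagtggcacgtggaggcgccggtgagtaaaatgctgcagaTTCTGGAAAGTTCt
Hspe1: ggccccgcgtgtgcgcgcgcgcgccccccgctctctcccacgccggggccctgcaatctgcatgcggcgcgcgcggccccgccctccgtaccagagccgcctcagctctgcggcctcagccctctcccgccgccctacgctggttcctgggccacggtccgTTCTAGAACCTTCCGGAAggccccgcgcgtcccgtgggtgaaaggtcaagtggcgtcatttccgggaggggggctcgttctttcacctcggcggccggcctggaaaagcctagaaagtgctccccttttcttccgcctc
Chordc1: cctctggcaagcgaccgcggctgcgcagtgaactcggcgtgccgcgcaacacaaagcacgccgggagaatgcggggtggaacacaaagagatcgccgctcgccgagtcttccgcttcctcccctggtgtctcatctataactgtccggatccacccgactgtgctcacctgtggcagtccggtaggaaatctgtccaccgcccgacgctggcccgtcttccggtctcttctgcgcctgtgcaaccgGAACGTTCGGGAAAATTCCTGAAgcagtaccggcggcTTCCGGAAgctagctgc
Of the 10 genes that rose, 8 had a promoter in the RefSeq table, of which 6 held a 2-unit match in at least 1 window and 3 a 3-unit match, namely Hsph1, Hspe1 and Chordc1. Among the 5 that did not pass, 3 held a 2-unit match and 1 a 3-unit match. Searched on both strands, and with the 2-unit matches counted also inside the longer ones, 2 units occurred in 15.1% and 3 units in 0.603% of all 32851 promoters in the table, or, counted per gene as above, in 17% and 0.662% of 27025 genes. The promoter of Hspa1a held 1 match of 2 units and that of Chordc1 the most, 5 of 2 units and 3 of 3 units with overlaps. The windows shown for Hsph1 and Hspe1 held 3 matches of 2 units each.

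Among 20 chaperones of the endoplasmic reticulum 3 rose, 15% against 3.01% of all genes higher, and the median was 0.15. These were Herpud1, a factor of protein degradation (0.75 ± 0.13, adjusted p = 0.00121), Dnajb9 (0.83 ± 0.15, 0.00191) and Creld2 (0.96 ± 0.28, 0.0368), whose call held in 30 of 43 alternatives. Hspa5, the BiP gene, differed by 0.24 (adjusted p = 0.239). The count was 7 without conventional mice 5 and 6, 7 without mice 5 and 6 of both groups and 5 with equal array medians. Of 18 genes of the ATF4 amino acid response 2 rose (11.1%), Ddit3 (CHOP, 0.63 ± 0.11, adjusted p = 0.000891) and Atf3 (0.96 ± 0.27, 0.0298). Atf3 was highest in germ-free mouse 1, at 9.52 against 7.4 to 8.37 in the other germ-free samples, and without that mouse its adjusted p was 0.0891. Cav1, the caveolin gene, and P4ha1, a collagen prolyl hydroxylase, belong to no list and were singled out after their values were seen. Cav1 lay at 9.27, 9.6, 9.36, 9.0 and 9.01 against 7.32, 7.56 and 7.69 (log2 1.70 ± 0.14, adjusted p = 1.97e-08). P4ha1 lay at 9.41, 9.57, 9.4, 9.54 and 9.57 against 7.8, 8.11 and 8.34 (1.39 ± 0.10, 7.33e-09). Both were separated between the groups by more than the range of either.

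Next to Cyp7a1, the largest rises among the named genes were those of Serpinb1a, Lpin1, Myc and Pfkfb3. Serpinb1a, a protease inhibitor of leukocyte elastase, lay at 9.81, 9.49, 9.4, 8.83 and 10.39 against 6.2, 6.6 and 8.22 and rose 6.82-fold (log2 2.77 ± 0.31, adjusted p = 7.88e-06). Lpin1, a phosphatidate phosphatase that also acts as a coactivator of PPAR-alpha, lay at 11.68, 11.38, 12.33, 11.33 and 11.84 against 8.43, 9.32 and 10.66 (2.32 ± 0.38, 0.000759). In neither gene did the groups overlap. Pfkfb3, which makes the activator of glycolysis fructose-2,6-bisphosphate, lay at 9.54, 9.28, 9.61, 9.22 and 9.34 against 6.79, 7.14 and 8.09 (2.09 ± 0.26, 2.62e-05). Myc (2.19 ± 0.49, adjusted p = 0.00742) and the stress gene Gadd45g (1.97 ± 0.49, 0.014) overlapped with conventional mice, of which mice 5 and 6 carried 9.76 and 8.98 of Myc and 10.64 and 10.2 of Gadd45g. Gadd45g did not pass with the fish oil groups fitted alone (adjusted p = 0.0762) or without germ-free mice 5 and 6 (0.0578). Among 22 immediate-early and growth response genes Myc, Gadd45g and Atf3 rose, 13.6% against 3.01% of all genes higher. The count was 6 without conventional mice 5 and 6, 9 without mice 5 and 6 of both groups and 1 with the fish oil groups alone. Fos, Jun and Egr1 differed by 0.26, 0.60 and 0.52 (adjusted p = 0.764, 0.27 and 0.486).

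Of 15 genes of gluconeogenesis and the insulin response, 3 rose, 20% against 3.01% of all genes higher. The count was 6 without conventional mice 5 and 6, and the list median was 0.18. Igfbp1, a binding protein of insulin-like growth factors that insulin represses, lay at 11.06, 10.49, 12.05, 10.72 and 11.34 against 8.83, 9.19 and 10.1 (log2 1.79 ± 0.31, adjusted p = 0.00101). Irs2 and Irs1, the insulin receptor substrates, rose by 0.97 ± 0.19 (0.00244) and 0.75 ± 0.18 (0.011). Igfbp1 and Irs1 did not overlap between the groups and Irs2 did, through conventional mouse 5. The gluconeogenic genes Pck1 (0.50, adjusted p = 0.194) and G6pc (0.30, 0.0973) did not pass. Ppargc1a, a coactivator of fasting genes, rose by 0.73 ± 0.16 (adjusted p = 0.00555) and was the only one of 13 PPAR-alpha and fasting genes to be called. Fgf21, Angptl4 and Cyp4a14 differed by -0.32, 0.49 and 0.29 (adjusted p = 0.323, 0.0862 and 0.728). In the growth hormone and IGF list of 13, Igfbp1 and Socs2 (1.2 ± 0.32, adjusted p = 0.0226) rose and Stat5a fell (-0.51 ± 0.10, 0.00348). The shares of that list were 15.4% higher and 7.69% lower, against 3.01% and 3.89% of all genes. Socs2, a feedback inhibitor of growth hormone signalling, lay at 11.46, 10.91, 12.13, 10.96 and 12.42, and its adjusted p was 0.0741 without germ-free mouse 6 and 0.0795 without mice 3 and 4.

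Clock genes were read beside the clock index given above. Of 19 clock and clock output genes, 2 rose, 10.5% against 3.01% of all genes higher, and the median was 0.27. Per1, a repressor of the clock that also responds to fasting signals, lay at 9.09, 9.07, 9.56, 8.61 and 8.67 against 6.49, 7.46 and 7.88, with no overlap (log2 1.73 ± 0.30, adjusted p = 0.00121). With the clock index as a covariate Per1 still passed, and Per2 (0.78 ± 0.23, adjusted p = 0.0362) did not (0.43, 0.134). Per2 kept its call in 29 of 43 alternatives. Dbp (0.94, adjusted p = 0.371) and Arntl (-0.99, 0.118) did not pass. Noct, the rhythmic gene of nocturnin, was named after its values were seen and rose by 1.86 ± 0.28 (adjusted p = 0.000354). Over all genes the covariate left 1391 calls.

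In lipid metabolism the calls were few in number, while 3.01% of all genes were called higher and 3.89% lower. Higher calls made up 25% of the triglyceride synthesis list. Lower calls made up 28.6% of the efflux list and 13.3% of the lipoprotein list, and none of these 3 lists had a call in the other direction. Of 12 triglyceride synthesis genes 3 rose: Lpin1, Gpat4, an acyltransferase (0.58 ± 0.13, adjusted p = 0.00988), and Lpin2 (0.63 ± 0.18, 0.0395), whose call held in 29 of 43 alternatives. Plin2, the coat protein of lipid droplets, lay at 12.34, 12.2, 12.25, 12.58 and 12.55 against 12.76, 12.9 and 13.39 and fell without overlap (log2 -0.58 ± 0.13, adjusted p = 0.0072). It was the only one of 18 lipid droplet genes to fall, and Fitm2, which helps droplets form, rose (0.46 ± 0.12, 0.0251; 33 of 43 alternatives). Apoa4, an apolipoprotein induced by fat load, lay at 10.09, 10.22, 10.48, 10.04 and 9.99 against 10.67, 11.52 and 13.27 (log2 -1.60 ± 0.32, adjusted p = 0.00338). Apoa4 lay highest in conventional mice 3 and 4, the mice of high clock index, and kept its call with that index as a covariate. Of the 15 lipoprotein genes Apoa4 and Lpl (-0.64 ± 0.18, 0.0272; 30 of 43 alternatives) fell. Among 7 genes of cholesterol efflux Abcg1 (-0.50 ± 0.12, adjusted p = 0.00964, and 0.0617 with the fish oil groups alone) and Pltp (-0.76 ± 0.19, 0.0167) fell.

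Fatty acid synthesis showed no call: of 19 genes 0 passed limma's test, 5 had an unadjusted p under 0.05 in the lower direction, and the median was -0.26. Over all genes 4039 of 19938 had such a p, in either direction. Scd1, the stearoyl desaturase, lay at 13.45, 13.55, 12.29, 11.66 and 12.78 against 9.89, 13.22 and 14.02 (log2 0.12 ± 0.49, adjusted p = 0.931). Conventional mice 5 and 6 carried the lowest Scd1, 9.89 and 11.41, and without them it fell by 0.87 (adjusted p = 0.0337), 1 of 3 genes of the list then lower. Fasn (-0.30 ± 0.35, adjusted p = 0.704) and Thrsp (0.37 ± 0.59, 0.796) overlapped between the groups. Among 17 cholesterol synthesis genes 0 passed, while 3 had an unadjusted p under 0.05 in the lower direction, and the list median was -0.08. Among 12 regulators of SREBP and sterol uptake, Insig2 fell (-0.59 ± 0.15, adjusted p = 0.0211) and Stard4 rose (0.74 ± 0.20, 0.026). With the clock index as a covariate neither passed (adjusted p = 0.0694 and 0.106), and they kept their calls in 37 and 34 of 43 alternatives. In mitochondrial fatty acid oxidation 2 of 19 rose, Acadl (0.36 ± 0.06, adjusted p = 0.00127) and Eci1 (0.32 ± 0.07, 0.00345). The 2 made up 10.5% of the list, against 3.01% of all genes higher. Of the 19 differences 17 were positive, with a list median of 0.12 against -0.03 over all genes. The count of called genes was 8 with equal array medians and 4 without conventional mice 5 and 6. Of 20 genes of peroxisomal and omega oxidation 0 passed, with 2 higher before adjustment (p under 0.05). Yet 18 of the 20 differences were positive, with a median of 0.15 against -0.03 over all genes. Genes of a list may vary together, so such counts of signs are not tests. For 3 of the 20 every germ-free sample lay above every conventional mouse, against 1.39% of all genes. Their summed signal lay between 90048 and 95889 in germ-free and between 80505 and 85652 in conventional mice.

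Markers of Kupffer cells and macrophages were lower in germ-free mice. Of 24 measured, 13 fell and 11 did not pass, against 3.89% of all genes lower, and all 24 differences were negative with a median of -0.59. In bulk liver, fewer cells of a type and less RNA per cell cannot be told apart. Vsig4, a complement receptor of resident Kupffer cells, lay at 9.88, 10.35, 10.23, 10.32 and 10.26 against 11.16, 11.37 and 11.88 (log2 -1.21 ± 0.16, adjusted p = 7.21e-05). The groups did not overlap. C1qb, a chain of the complement starter C1q made by macrophages, fell by 1.1 ± 0.17 on the log2 scale (adjusted p = 0.000421), Cd68 by 1.03 ± 0.20 (0.00306), the lectin gene Clec4f by 0.70 ± 0.13 (0.0024) and Spic, the factor of iron-recycling macrophages, by 0.58 ± 0.09 (0.00055). Each was below every conventional mouse in all germ-free samples. Adgre1, the F4/80 gene (-0.89, adjusted p = 0.0149), C1qc (-0.84, 0.0137) and Timd4 (-0.63, 0.0156) fell with overlap, and with the clock index as a covariate they did not pass (0.0595, 0.0562 and 0.0644). Without germ-free mouse 1 the adjusted p of Adgre1 was 0.0528. Slc40a1 (-0.07), Ccr2 (-0.19) and Cx3cr1 (-0.18), the last 2 marks of monocyte-derived cells, did not pass (adjusted p = 0.838, 0.602 and 0.112). The summed linear signal of the 24 markers lay between 13066 and 15592 in germ-free and between 16680 and 28300 in conventional mice. The count fell to 7 with the clock index as a covariate, 8 with the fish oil groups alone, 8 without conventional mice 5 and 6 and 7 without mice 5 and 6 of both groups. When a change above 1.2-fold was required, Vsig4 and C1qb kept their calls, and Cd68, Clec4f and Spic did not.

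Sinusoidal endothelial markers fell as well, 10 of 18 against 3.89% of all genes lower, and the list median was -0.45. Cdh5, the junction protein VE-cadherin, lay at 9.33, 9.41, 9.35, 9.57 and 9.55 against 9.73, 10.07 and 10.16 and did not overlap (log2 -0.58 ± 0.11, adjusted p = 0.00161). Mrc1 (-0.56 ± 0.11, 0.00302), the mannose receptor, Gpr182 (-0.51 ± 0.11, 0.00662) and the lectin gene Clec4g (-0.78 ± 0.18, 0.00921) overlapped through conventional mouse 6, the lowest of its group in all 3. Stab2, a scavenger receptor, and Pecam1 fell by 0.42 and 0.37 (adjusted p = 0.0448 for both), while Plvap, Vwf and Tie1 differed by -0.04, -0.08 and 0.07. Lyve1 (-0.81, 0.0353) kept its call in 29 of 43 alternatives. With a change above 1.2-fold required, Cdh5, Mrc1, Gpr182, Clec4g and Lyve1 lost their calls. The count of 10 was 4 with the fish oil groups alone, 5 without germ-free mice 5 and 6, and 6 without conventional mouse 4 or germ-free mouse 1, 2 or 5 or with all probe sets tested, but 14 without conventional mice 5 and 6. The summed signal of the 18 markers lay between 11047 and 22305 in conventional and between 12256 and 12827 in germ-free mice, so the ranges overlapped through conventional mouse 6.

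**Figure D4:**
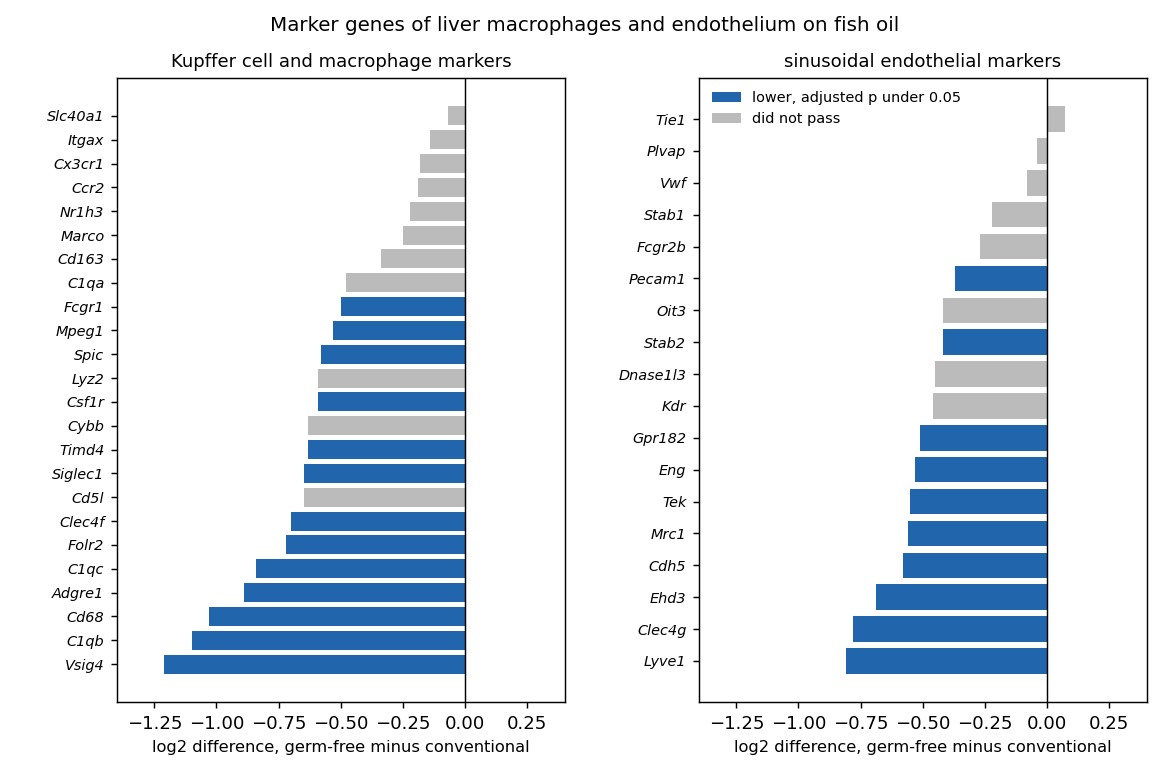
log2 difference, germ-free (n = 5) minus conventional (n = 6) on fish oil, of each measured marker of Kupffer cells and macrophages (left, 24 genes) and of sinusoidal endothelium (right, 18 genes), with genes lower at an adjusted p under 0.05 in blue and the others in grey. All 24 bars on the left point to lower values, from -0.07 for Slc40a1 to -1.21 for Vsig4.

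Other cell types gave few calls. Of 21 stellate cell and fibroblast markers Pdgfrb alone fell (-0.52 ± 0.12, adjusted p = 0.00933, and 0.0924 without germ-free mice 5 and 6; 4 of the list fell without conventional mice 5 and 6), of 9 cholangiocyte markers Muc1 (-0.39, 0.0177; 37 of 43 alternatives), and of 16 neutrophil markers Csf3r (-0.39, 0.0315; 31 of 43 alternatives). Of 21 lymphocyte and NK cell markers 0 passed limma's test, with 2 lower before adjustment. The same held for the 3 erythroid markers (0 passed, 2 lower unadjusted) and the 8 genes of MHC class II presentation (0 and 3). Summed neutrophil markers lay between 2604 and 3441 in germ-free and between 2146 and 12126 in conventional mice. The mean level of these markers was 6.7 and 6.45 in conventional mice 5 and 6 and between 5.94 and 6.19 in all other samples.

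Of 23 genes of endotoxin sensing and Toll-like receptors 5 fell, 1 rose and 17 did not pass, against 3.89% of all genes lower. Irak3, a brake on Toll-like receptor signalling in macrophages, lay at 6.57, 7.0, 6.8, 6.48 and 6.99 against 7.02, 7.86 and 8.44 (log2 -1.01 ± 0.19, adjusted p = 0.00201), and Tlr3, a sensor of double-stranded RNA, fell by 0.68 ± 0.13 (0.00226). Tlr1 (-0.46), Tlr8 (-0.51) and Nod1 (-0.38) fell too (adjusted p = 0.013, 0.0232 and 0.0146), whereas Tlr4, Cd14 and Lbp of the endotoxin pathway differed by -0.16, -0.14 and -0.36 and did not pass (0.544, 0.702 and 0.176). Traf6, a ligase in the same pathway, lay at 9.68, 9.66, 9.89, 9.67 and 9.83 against 9.07, 9.27 and 9.5 and rose (0.46 ± 0.07, 0.000508). Neither Irak3, Tlr3 nor Traf6 overlapped. The count of 5 was 3 without germ-free mice 5 and 6, 3 without mice 5 and 6 of both groups and 3 after a second quantile normalization. Irak3, Tlr3 and Traf6 lost their calls when a change above 1.2-fold was required.

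Interferon response genes fell in 9 of 26 cases, against 3.89% of all genes lower, and rose in 0. Before adjustment 16 were lower at p under 0.05 in limma's test, and the median was -0.32. Irf7, the factor that amplifies the type I interferon response, lay at 8.32, 8.82, 8.73, 8.25 and 8.63 against 8.87, 9.18 and 9.6 (log2 -0.69 ± 0.12, adjusted p = 0.00127). Oasl2 fell by 0.80 ± 0.16 (0.00345), Oasl1 by 0.54 ± 0.11 (0.00361), Stat2, which carries the interferon signal, by 0.53 (0.00394) and Irf1 by 0.52 (0.00933). Irf7 and Oasl2 were separated between groups, the latter by a margin that vanished at 2 decimals, and Oasl1 overlapped. Cxcl10 (0.11, adjusted p = 0.873) and Ifit1 (-0.31, 0.488) did not pass. The count was 4 with the fish oil groups alone and 13 with the clock index as a covariate. Irf7, Oasl2 and Oasl1 lost their calls when a change above 1.2-fold was required. Kupffer markers moved with these lists, and their part in the fall was not tested. Genes singled out after their values were seen were Tnfaip2 (-1.34 ± 0.16, adjusted p = 1.3e-05), Pilra (-1.29 ± 0.15, 1.08e-05), Cd72 (-1.19 ± 0.17, 0.000226), Slc7a7 (-1.16 ± 0.16, 0.000128) and Adgre5 (-0.93 ± 0.11, 1.33e-05), of which Pilra is an inhibitory receptor of myeloid cells and Cd72 a receptor of B cells. None of these 5 overlapped between the groups.

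Acute phase genes gave 0 calls among 26, with 2 higher and 5 lower before adjustment and a median of -0.10. Without conventional mice 5 and 6, 4 of them were higher in germ-free mice. Saa1 (-0.75 ± 0.72, adjusted p = 0.631) and Lcn2 (-1.25 ± 0.55, 0.193) overlapped, and Hamp, the hepcidin gene, differed by -0.02 (0.976). In the iron list of 15, Hjv, a co-receptor upstream of hepcidin, fell by 0.62 ± 0.15 (0.0121) and Slc11a2, an iron importer, by 0.36 ± 0.10 (0.0352; 28 of 43 alternatives). Of 27 complement and coagulation genes the 2 that fell were C1qb and C1qc, which also stand in the macrophage list. The shares lower were 13.3% in the iron list and 7.41% in the complement list, against 3.89% of all genes. Of 27 cell cycle genes 0 passed limma's test, with 9 lower and 1 higher before adjustment, and 3 fell with the fish oil groups alone.

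Among lists of genes that handle foreign compounds, 1 to 4 genes rose in each. Ahr, the receptor for aryl hydrocarbons and tryptophan products of microbes, lay at 10.76, 10.77, 10.55, 10.55 and 10.04 against 8.75, 9.45 and 9.89 and rose without overlap (log2 1.05 ± 0.17, adjusted p = 0.000585). Its targets Cyp1a1 (-0.02, adjusted p = 0.939) and Cyp1a2 (0.36, 0.199) did not pass, nor did any of the other 6 genes of that list. Of 26 genes of the Cyp2 and Cyp3a families Cyp2b9 alone rose (1.72 ± 0.52, adjusted p = 0.044), and it kept its call in 19 of 43 alternatives and not without conventional mice 5 and 6, which carried 9.25 and 8.68 against 11.77 to 12.73 in the other 4 (0.65, 0.158). Cyp2b10 and Cyp3a11, targets of CAR and PXR, differed by 0.41 and 0.21 (0.254 and 0.143). Of 31 Phase II genes 4 rose, Gsta4 (0.65, adjusted p = 0.0245), Ugt2b35 (0.39 ± 0.08, adjusted p = 0.00616), Ugt2b37 (1.36 ± 0.34, 0.0152, and 0.0651 without mice 3 and 4) and Sult1d1 (0.75 ± 0.19, 0.0181, and 0.0586 without germ-free mouse 2). These 4 made up 12.9% of the Phase II list, against 3.01% of all genes higher. Before adjustment limma gave 9 higher and 0 lower at p under 0.05. The count of 4 was 2 without conventional mice 5 and 6 and 1 with the fish oil groups alone. The 2 Ugt2b genes did not keep their calls with the fish oil groups alone (0.0519 and 0.121), and members of these families share sequence that the probes may not tell apart. Fmo2 (0.90, adjusted p = 0.0324) was 1 of 4 flavin monooxygenases and kept its call in 28 of 43 alternatives.

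The remaining lists held 1 to 3 called genes each; in the antioxidant list of 18 that was Nnt, described with both diets. In oxidative phosphorylation 39 of 44 differences were positive, with a list median of 0.13 against -0.03 over all genes. Positive signs over all genes were not counted, and genes of a list may vary together. Before adjustment 14 were higher at p under 0.05 in limma's test, against 4039 of 19938 genes in either direction. After adjustment 3 rose, 6.82% against 3.01% of all genes higher. These were Ndufa5 (0.49 ± 0.10, adjusted p = 0.00355), Atp5l (0.55, 0.0259) and Cox6b1 (0.24, 0.0373), and the last 2 kept their calls in 34 and 29 of 43 alternatives. The count was 11 with equal array medians, 12 without conventional mice 5 and 6, 6 without mice 5 and 6 of both groups and 1 with the fish oil groups alone. Of 31 proteasome genes Psma7 and Psma5 rose and Psmc4 fell, with adjusted p of 0.0412, 0.0431 and 0.0487 and calls kept in 29, 22 and 17 of 43 alternatives. Of 29 lysosome genes Atp6v0d2, a subunit of the proton pump, rose (1.22 ± 0.29, 0.0115, and 0.0554 without conventional mice 5 and 6). In glycolysis Tpi1 fell among 10 genes (-0.25, adjusted p = 0.00711) and in the urea cycle Nags, which makes its activator, among 9 (-0.27, 0.0147), and both calls were lost with the fish oil groups alone (0.0561 and 0.0712). Of 18 male-biased genes Susd4 rose (0.90 ± 0.23, 0.0167, and 0.0618 with the fish oil groups alone), and of 16 female-biased genes Cyp2b9 and Fmo2. Hsd3b5, a male-specific steroid enzyme, and Slco1a1, a male-biased transporter, differed by 0.19 and -0.04 on fish oil (adjusted p = 0.907 and 0.962).

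Of the 36 genes that fell more than 2-fold, several stand in none of the lists. Arrdc3, an arrestin-domain gene, lay at 10.18, 9.56, 9.28, 9.24 and 9.74 against 9.41, 11.74 and 12.44 (log2 -1.77 ± 0.36, adjusted p = 0.00361, and 0.0504 with the fish oil groups alone). It overlapped through conventional mouse 6. Fabp7, a fatty acid binding protein of the nervous system, lay at 7.97, 8.52, 8.42, 8.25 and 8.46 against 9.18, 9.68 and 10.97 (-1.43 ± 0.25, 0.00124), and Mmd2 at 6.57, 7.08, 6.57, 6.84 and 6.66 against 7.59, 8.13 and 8.67 (-1.39 ± 0.27, 0.00251). Neither overlapped. Obp2a, an odorant-binding protein gene, fell by 1.69 ± 0.46 on the log2 scale (0.0245), and did not pass without conventional mouse 1 (0.0547), conventional mouse 5 (0.0533) or germ-free mouse 1 (0.0832). The probe set named Mir122, after the main microRNA of hepatocytes, had the lowest difference of all named genes (-2.06 ± 0.64, adjusted p = 0.0498), but its groups overlapped and its call held in only 14 of 43 alternatives. An array of this kind reads longer transcripts, not the mature microRNA.

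To see which differences recurred, the same contrast was taken in the 12 lard mice, which share no sample with the fish oil mice but share the pooled spread of the fit. On lard 363 genes were called (1.82%), 226 higher (1.13%) and 137 lower (0.687%). Of all genes, 92 (0.461%) were called in the same direction on both diets, 31 higher and 61 lower, and 2 in opposite directions, Pltp and Ttc12. The 94 genes called on both made up 6.83% of the fish oil calls and 25.9% of the lard calls. Among the fish oil calls 79.6% had the same sign on lard, against 56.4% of all genes.

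Nnt, the mitochondrial transhydrogenase that makes NADPH, was the gene with the smallest p on fish oil of those named. It lay at 9.84, 9.92, 9.85, 9.72 and 9.84 against 10.8, 11.14 and 11.33 (log2 -1.28 ± 0.08, adjusted p = 1.05e-10), and on lard at 10 to 10.23 in germ-free and 11.27 to 11.52 in conventional mice (-1.27 ± 0.07). A deletion in Nnt is known to distinguish a widely used C57BL/6 substrain, and stock is not in the labels. Wdfy1, an endosomal protein gene, lay at 7.18, 7.13, 7.33, 7.22 and 7.1 against 7.97, 8.24 and 8.44 (-1.02 ± 0.08, 2.08e-08) and differed by -1.18 ± 0.08 on lard. In both genes the germ-free mice of both diets lay below all conventional mice. Nbea (-1.11 on fish oil, -0.93 on lard), P2ry13, a purine receptor (-1.11 and -0.76), and Bank1, a B cell adaptor (-0.97 and -0.60), were lower on both, and so was Vsig4 (-1.21 and -0.98). Papss1, which makes the sulfate donor (0.70 and 1.02), Tmem267 (1.04 and 1.17), Entpd4 (0.57 and 0.65) and Rcan2 (0.66 and 0.82) were higher on both. None of these 10 genes, Vsig4 included, overlapped between the fish oil groups, and their difference between the diets was not called (adjusted p from 0.261 to 0.996). Cyp7a1 (1.42 ± 0.38 on lard, adjusted p = 0.0524) and Nr0b2 (-1.08 ± 0.32, 0.0831) did not pass on lard, and their difference between the diets did not pass either (0.22 and 0.519). Of the Kupffer markers 6 fell and 2 rose on lard, against 0.687% of all genes lower and 1.13% higher. Of the endothelial markers 0 passed, with 4 lower at an unadjusted p under 0.05. Of both sets of markers together 1 differed between the diets, Cx3cr1, which rose on lard (0.26, adjusted p = 0.0301; difference -0.44 ± 0.09, 0.0326).

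**Figure D5:**
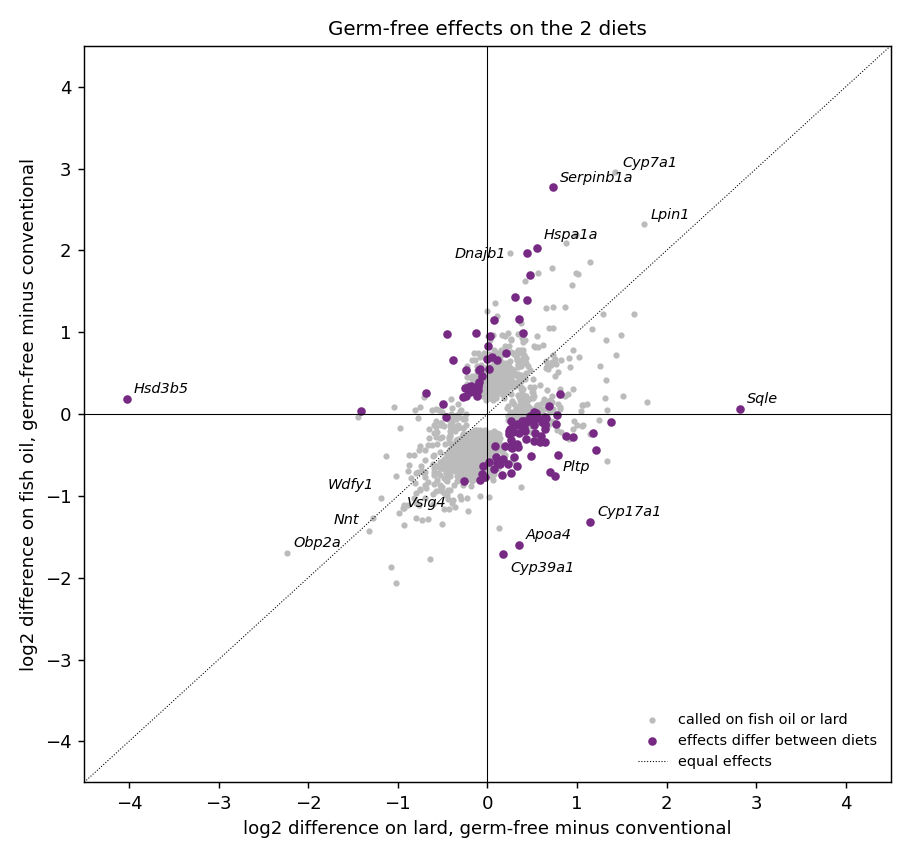
log2 difference between germ-free and conventional mice on lard (x axis) against that on fish oil (y axis) for genes called in either comparison (grey) or in the test of the difference between the diets (purple); the dotted line marks equal effects. Nnt and Wdfy1 lie near the line, Hspa1a and Serpinb1a far above it, and Sqle and Hsd3b5 near 0 on the fish oil axis.

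The test of the difference itself, the germ-free effect on fish oil minus that on lard, called 121 genes (0.607%), 43 higher (0.216%) and 78 lower (0.391%), of which 63 were also called on fish oil. Among the heat shock genes 4 of 15 were higher, against 0.216% of all genes. These were Hspa1a (difference 1.48 ± 0.21, adjusted p = 0.00347), Dnajb1 (1.53 ± 0.26, 0.00905), Dnajb4 (0.81 ± 0.14, 0.00907) and Bag3 (1.12 ± 0.21, 0.0216). On lard Hspa1a was higher as well (0.55 ± 0.15, adjusted p = 0.0498), at 6.93 to 7.54 in germ-free and 6.45 to 6.8 in conventional mice. It was the only heat shock gene called on lard, where 9 of 15 were higher at an unadjusted p under 0.05. Over all genes 2428 of 19938 had such a p on lard, in either direction. Cav1 (1.23 ± 0.19, 0.00347), P4ha1 (0.95 ± 0.14, 0.00347), Serpinb1a (2.04 ± 0.43, 0.0363) and Traf6 (0.52 ± 0.10, 0.022) were higher on fish oil too. Hspa1a, Dnajb1, Dnajb4, Cav1 and P4ha1 kept this call in 41 of 42 alternatives, Bag3 and Traf6 in 40 and Serpinb1a in 26.

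Of the other genes that differed between the diets, Hsd3b5 lay at 6.12 to 11.2 in lard germ-free and 10.54 to 12.28 in lard conventional mice (-4.02 ± 0.56, adjusted p = 0.000198), whereas all 11 fish oil samples lay between 11.51 and 12.54, so that the difference was 4.21 ± 0.81 (0.022; 37 of 42 alternatives). Sqle, the squalene epoxidase of cholesterol synthesis, was higher in germ-free mice on lard (2.82 ± 0.34, 3.25e-05) and not on fish oil (0.07 ± 0.35, 0.948), a difference of -2.75 ± 0.49 (0.0117; 41 of 42). Of the 17 cholesterol synthesis genes, 11 rose on lard and 6 were lower in the test of the difference, while the list median was 0.79 on lard and -0.08 on fish oil. Over all genes 1.13% rose on lard and 0.391% were lower in that test. Pltp, which transfers phospholipids between lipoproteins, fell on fish oil and rose on lard by 0.76 ± 0.18 (adjusted p = 0.031), a difference of -1.52 ± 0.27 (0.011; 41 of 42). Apoa4 (-1.95 ± 0.44, 0.0467) and Cyp39a1 (-1.89 ± 0.43, 0.0485), which fell on fish oil and differed by 0.35 and 0.18 on lard (adjusted p = 0.779 and 0.917), and the steroid hydroxylase Cyp17a1 (-2.47 ± 0.56, 0.0467) were called too, but kept the call in 21, 19 and 18 of 42 alternatives. Among the cell type lists, that of stellate cells held the most such genes. Of its 21 genes 5 rose on lard, against 1.13% of all genes. In the test of the difference 5 were lower, against 0.391% of all genes. Of these the collagen genes Col1a1 (difference -0.76 ± 0.15, adjusted p = 0.0257), Col1a2 (-0.71 ± 0.13, 0.0161), Col3a1 (-0.61 ± 0.12, 0.0249) and Col6a1 (-0.53 ± 0.12, 0.0412) rose on lard by 0.65, 0.61, 0.57 and 0.41, and Pdgfrb (-0.82 ± 0.17, 0.0284) had fallen on fish oil. On fish oil the 4 collagen genes differed by -0.12, -0.10, -0.05 and -0.11. Pdgfrb kept its call for the difference in 31 of 42 alternatives, and for the collagen genes the alternatives were not counted. Of 9 cholangiocyte markers 2 were lower in the test of the difference, and 1 rose on lard.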

How the data were processed

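Liver RNA (250 ng per mouse, per the labels' protocols) was hybridised to MoGene 1.0 ST arrays. The deposited values are log2 signals made by RMA, in 1 run of 24 arrays with Affymetrix Expression Console (apt engine 1.1.2800.28061, library r4), per the file headers. Arrays carry no read depth, so precision rests on the number of mice. Of 35556 probe sets, 21789 had 1 gene symbol, and the probe set with the highest mean stood for each of 19938 genes. Members and gene lists were chosen with earlier results of these data known. Groups came from the sample titles. Germ-free arrays 3 and 4 on fish oil were averaged, and limma 3.58.1 (R 4.3.3) was fitted to 23 samples in 4 groups with 1 pooled spread (19 residual degrees of freedom), so each standard error rests on all groups. The contrasts were germ-free minus conventional on fish oil, the same on lard, and their difference, with Benjamini-Hochberg adjustment over all 19938 genes and calls at an adjusted p under 0.05. The code was tested on simulated data.

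Genes were named by rule: the 8 highest and 8 lowest called differences above the median level, up to 3 called members of each of 47 lists with the smallest p, 32 fixed genes, the 10 with the smallest p on both diets, and the 6 highest and 6 lowest differences between diets. Of the fixed genes 29 were measured and the others were not analysed here. Another 24 genes (among them Bag3, Hsph1, Cd68, Adgre1, Clec4g, Lyve1, Cav1, P4ha1, Noct, Pilra and Tnfaip2) and further list members were named after their values were seen. Same-numbered mice of the fish oil groups were not paired: their correlations ran from -0.259 to 0.279, and 0 of 6 germ-free mice correlated best with their own number. In all, 43 alternatives were computed, covering probe set choice, scaling, variance model, weights, a fold threshold of 1.2, covariates, a replicate block and left-out mice.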

Additional observations from a re-analysis of the deposited data

Results flagged for a closer look

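Mice far from the rest of their group, with a gap to the nearest mouse over 0.625 of the group's range for 6 samples or 0.71 for 5, were found in 13 of 294 groups of named genes, and chance flags about 1 in 20 groups. In conventional mice the gap was 0.657 of the range for Serpinb1a and 0.662 for Fabp7 (mouse 1), 0.628 for Prss8 (mouse 4), 0.651 for Gpat4 and 0.642 for Csf3r (mouse 5), and 0.73 for Sqle, 0.643 for Dnajb9 and 0.699 for Clec4g (mouse 6). In germ-free mice it was 0.744 for Dnajb1 and 0.807 for the probe set named Mir122 (the averaged mice 3 and 4), 0.735 for Vsig4 (mouse 1), 0.806 for Cox6b1 (mouse 5) and 0.759 for Csf3r (mouse 6).

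The germ-free effect differed between fish oil and lard in limma's test of the difference for 22 named genes. It was higher on fish oil (log2) for Hsd3b5 (4.21), Serpinb1a (2.04), Dnajb1 (1.53), Hspa1a (1.48), Cplane1 (1.45), Rnf186 (1.43), Cav1 (1.23), Bag3 (1.12), P4ha1 (0.95), Dnajb4 (0.81), Jchain (0.59) and Traf6 (0.52). It was lower for Sqle (-2.75), Cyp17a1 (-2.47), Apoa4 (-1.95), Cyp39a1 (-1.89), Prss8 (-1.65), Pltp (-1.52), Pls1 (-1.48), Dhcr7 (-1.29), Pdgfrb (-0.82) and Muc1 (-0.59). The calls of Rnf186, Muc1 and Jchain held in 17 of 42, 14 of 41 and 14 of 41 alternatives. Those of Prss8, Dhcr7, Cplane1, Pdgfrb and Pls1 held in 18, 29, 30, 31 and 41 of 42.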

How the results depend on the processing

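Of 113 called named genes, 38 kept their call in all 43 alternatives and none changed sign. Among uncalled genes Scd1 turned from 0.12 to -0.87 (adjusted p = 0.0337) without conventional mice 5 and 6. The total of 1377 fish oil calls became 72 when a change above 1.2-fold was required, 581 with the fish oil groups alone and 2075 without conventional mice 5 and 6, and leaving out 1 sample gave 845 (without mice 3 and 4; 874 without germ-free mouse 1) to 1668 (without conventional mouse 6). The 363 lard calls became 1084 with array weights, 663 with 1 weight per group and 22 with the fold threshold, and 163 to 475 with 1 sample left out. The 121 differences between diets became 30 with all probe sets, 79 with a trended and robust variance, 260 with array weights, 0 with the fold threshold (limma; 2426 genes had an unadjusted p under 0.05 without it), 209 with 24 arrays kept separate, 283 with the clock index and 336 with the 75th percentile as covariate. They became 457 without conventional mice 5 and 6, 35 without germ-free mice 5 and 6, 226 without both pairs, 49 without mice 3 and 4, and 24 (without lard germ-free mouse 1) to 233 with 1 sample left out. The 92 genes shared by the diets became 255 with array weights, 6 with the fold threshold and 55 with the clock index, and 42 to 128 with 1 sample left out. The mouse number as a replicate block, with 24 arrays kept separate, gave 2061 fish oil, 355 lard, 190 difference and 103 shared calls, where 24 arrays without the block gave 2001 fish oil calls. The cause of these shifts was not tested. The arrays limit the result through 5 and 6 mice per group, the wider spread of the conventional mice and the scaling, on which the balance of higher and lower calls depends.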
